A study of Mus musculus with 576 samples.

Results

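The Frizzled receptors, Fzd1 to Fzd10, are the 10 mouse genes that encode the Frizzled family, chosen by gene symbol from the 36658 genes listed in each of 3 count tables. All 10 were found in every table. The tables hold Smart-seq2 libraries (1 library per sorted cell, read along the whole transcript) of 576 GFP+ cells sorted from mouse dorsal pancreas at embryonic day 12.5 (E12.5). In Nkx2.5-Cre;mTmG and Nkx3.2-Cre;mTmG embryos (the Nkx2.5 and Nkx3.2 lines), Cre made from the Nkx2-5 or Nkx3-2 gene switches the membrane reporter from Tomato to GFP, so a GFP+ cell has expressed the driver or descends from a cell that did. Prox1-GFP embryos carry a transgene that reports Prox1 expression. Per the study's methods all lines were on a C57BL/6J background and embryos of mixed sex were used. The labels give no treatment. Each line filled 2 plates of 96 wells (6A and 6B for the Nkx2.5 line, 7A and 7B for the Nkx3.2 line, 8A and 8B for Prox1-GFP).

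Frizzled proteins are cell-surface receptors that bind Wnt ligands through a cysteine-rich extracellular domain. With the co-receptors Lrp5 and Lrp6 they recruit Dishevelled and stabilise β-catenin, which acts on genes with TCF/LEF sites. With other partners, such as Ror1, Ror2, Vangl and Celsr proteins, they take part in planar cell polarity and other pathways that do not need β-catenin. By sequence the family falls into the groups Fzd1/Fzd2/Fzd7, Fzd5/Fzd8, Fzd3/Fzd6 and Fzd4/Fzd9/Fzd10. Wnt signalling is known to take part in the growth of pancreatic epithelium and mesenchyme. The question here was which receptor genes had RNA in each cell type. All receptor levels below are those of RNA, as protein was not measured.

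Members of a group encode similar proteins. Of the aligned residues encoded by the GENCODE M21 coding sequences, 81% were identical between Fzd1 and Fzd2, 80.5% between Fzd1 and Fzd7 and 79.4% between Fzd2 and Fzd7. The share was 71% for Fzd5 and Fzd8, 66.7% for Fzd9 and Fzd10, and 52.4% for Fzd3 and Fzd6. Fzd4 shared 54.7% with Fzd10 and 54.2% with Fzd9. Across groups the highest share was 54.5% (Fzd2 and Fzd5), above that of Fzd3 and Fzd6. Each of Fzd3, Fzd6 and Fzd4 was still closest to members of its own group. In the cytoplasmic tail, each of the 10 genes encoded once the lysine-threonine-any 3 residues-tryptophan stretch to which Dishevelled binds. The stretches of the members other than Fzd8 are shown because this docking site is common to the whole family, read from the GENCODE M21 transcripts (GRCm38) in the coding direction. Capitals mark the codons of the fixed lysine, threonine and tryptophan.
Fzd1: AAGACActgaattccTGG
Fzd2: AAGACActgcactcgTGG
Fzd7: AAGACCctgcagtcaTGG
Fzd5: AAGACTctggagtctTGG
Fzd3: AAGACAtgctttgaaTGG
Fzd6: AAGACGtgcacagaaTGG
Fzd4: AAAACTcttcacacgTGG
Fzd9: AAGACTtttcagactTGG
Fzd10: AAGACCctgcagtccTGG
After this stretch Fzd1, Fzd2 and Fzd7 encoded 17 further residues each. Fzd4 encoded 33, Fzd10 50, Fzd9 54 and Fzd5 55, whereas the tail of Fzd6 ran on for 206 residues and that of Fzd3 from residue 507 to 666.

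The genes differ in structure in ways that bear on the counts. Fzd1 (ENSMUSG00000044674, chr5:4753839-4758035, - strand), Fzd2 (ENSMUSG00000050288, chr11:102604396-102608058, + strand) and Fzd7 (ENSMUSG00000041075, chr1:59482424-59486955, + strand) each have 1 exon, as do Fzd8, Fzd9 and Fzd10. Fzd4 (ENSMUSG00000049791, chr7:89404355-89413134, + strand) and Fzd5 (ENSMUSG00000045005, chr1:64730558-64737751, - strand) have 2 exons. Fzd3 (ENSMUSG00000007989, chr14:65192449-65262463, - strand) and Fzd6 (ENSMUSG00000022297, chr15:39006034-39038188, + strand) have 7 exons in their coding transcripts. The exons of Fzd3 cover 12.8 kb, against 3.66 kb for Fzd2 and 4.82 kb for Fzd6, and 15.7% of its transcript is coding. Since a longer transcript gives more reads, levels of different genes are compared only as CPM (counts scaled to the total of the same cells) per kb of exon. Of the 31-base words of Fzd5, 17.2% also occur in transcripts of other genes, almost all in Gm38058, which overlaps it on the other strand, and Fzd6 overlaps Gm26704 in the same way. The library does not mark strand, so reads of such pairs cannot be told apart and the values of Fzd5 and Fzd6 carry that uncertainty. For the other members the share of such words was at most 1.9%. Between 47.5% and 60.2% of the values above 0 of Fzd3, Fzd4, Fzd5 and Fzd6 were not whole, as estimated counts need not be, against at most 0.775% for the others.

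Of the 576 cells, 549 passed the filter of the study's methods (between 83 and 96 on each plate), with between 224791 and 1512669 counts a cell. The median number of genes with a count was 5788, 7271 and 7042 in the Nkx2.5, Nkx3.2 and Prox1-GFP lines. The labels do not tie cells to embryos or litters. A line thus counts as 1 sample whose cells are not replicates of it, and neither a test nor a p-value is given. A level is the CPM of a group's pooled counts, which mixes the share of cells with a count and the level in those cells. Intervals are exact 95% Poisson intervals of the summed counts, and they cover counting error only, as PCR copies are counted too. Line and plate cannot be told apart, since each plate holds 1 line.

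Clustering that left out the Frizzled genes and 52 other Wnt pathway genes gave 11 clusters, and 546 cells were placed in 4 classes by marker genes. Names rest on these markers alone and stand for endocrine-like, epithelial-like (without the endocrine cells), mesothelial-like and mesenchymal-like. The Prox1-GFP line held 20 endocrine, 86 epithelial and 77 mesenchymal cells. The Nkx3.2 line held 22 mesothelial cells and the Nkx2.5 line 5, and their 336 mesenchymal cells were split evenly between them. All 11 endocrine markers were at 10 CPM or more in the endocrine cells (44760 CPM summed, against 90.9 CPM in the other epithelium), as were all 12 epithelial markers in the epithelial cells. Of 7 mesothelial markers 6 were at that level in the mesothelial cells of each line (2146 and 2203 CPM summed, against at most 89.3 CPM in mesenchyme). The mesenchymal markers, at 4546 to 4993 CPM in mesenchyme, still summed to 4039 CPM in the mesothelial cells of the Nkx2.5 line and 2574 CPM in those of the Nkx3.2 line, and the part of these markers in the Frizzled levels there was not tested. Among markers of other cells, the endothelial list summed to 26.9 to 62.7 CPM over the 7 groups and the erythroid list to at most 47.8 CPM. The immune list was at 50 CPM and the list of glia and neurons at 76.8 CPM in endocrine cells, the highest of the groups. The part of these lists in the Frizzled levels was not tested either.

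The classes differed in their leading receptors. In endocrine cells most of the Frizzled level per kb was that of Fzd3. The other epithelial cells had mainly Fzd2 and Fzd3, with lower levels per kb of the other members but Fzd10. The 22 mesothelial cells of the Nkx3.2 line were led by Fzd4 and Fzd2, followed by Fzd3. Mesenchymal cells of the 3 lines had Fzd2, Fzd1, Fzd7 and Fzd3.

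Fzd1, Fzd2 and Fzd7, whose products are best known for signalling through β-catenin, led in the mesenchyme of each line on the scale per kb. On plate 8B alone Fzd1 (1.69 CPM per kb) came after Fzd3 (4.85) and Fzd4. Fzd2 stood at 44.1 CPM in mesenchyme of the Nkx2.5 line (38.1 and 50.6 CPM on its 2 plates), at 62.3 CPM in the Nkx3.2 line (60.7 and 64.9) and at 40.6 CPM in the Prox1-GFP line (50.9 and 33.6). It had a count in 59.5%, 88.7% and 62.3% of these cells, with a median cell at 4.18, 41.9 and 12 CPM and the highest at 449, 426 and 367 CPM. Epithelial cells were within the range of the mesenchymal plates at 37.7 CPM pooled (41.5 and 33.4 on plates 8A and 8B). A count was found in 70.9% of them (exact binomial 95% interval 60.1% to 80.2%). The mesothelial cells of the Nkx3.2 line were also within it at 45.8 CPM pooled, with a count in 20 of 22 cells. By plate, epithelium on 8B was just under the lowest mesenchymal plate (33.6 CPM). The 3 mesothelial cells of plate 7A were above the highest, at 76 CPM. The lowest were the 5 mesothelial cells of the Nkx2.5 line at 14.6 CPM, from 1 cell, and the endocrine cells, in which a single count was found over all 20 cells (0.0591 CPM).

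Fzd7 was at 17.4 CPM in mesenchyme of the Nkx2.5 line (14.9 and 20.2 CPM by plate), 31.4 CPM in the Nkx3.2 line (28.4 and 36.1) and 41.5 CPM in the Prox1-GFP line (32 and 48). Outside the mesenchyme every plate with at least 3 cells was below the lowest mesenchymal plate. Fzd7 was at 6.45 CPM in epithelial cells, 10.1 CPM in mesothelial cells of the Nkx3.2 line and 0.414 CPM (7 counts in 3 cells) in endocrine cells. Fzd1 was detected in fewer cells than Fzd2. Its level was 26.1, 35.2 and 40.3 CPM in mesenchyme of the Nkx2.5, Nkx3.2 and Prox1-GFP lines, with a count in 18.5%, 36.9% and 27.3% of cells. The 2 plates of the Prox1-GFP line were far apart, at 89.3 CPM on 8A and 7.08 CPM on 8B, wider than the range between lines. Fzd1 was at 10.2 CPM in epithelial cells, from 10 of 86 cells, and at 9.68 CPM in the mesothelial cells of the Nkx3.2 line, from 5 of 22. None of the 20 endocrine cells had a count. By counting alone this limits the summed level of these cells to 0.177 CPM (3 counts). By cells, 0 of 20 has an upper limit of 16.8% (exact binomial), above the 11.6% of epithelial cells with a count.

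Fzd3 and Fzd6 are known for planar cell polarity. Fzd3 was found in most cells of every group but mesenchyme of the Nkx2.5 line and its few mesothelial cells. It stood at 112.9 CPM (counting interval 110.4 to 115.3) in epithelial cells (109.8 and 116.4 CPM on plates 8A and 8B), at 51.2 CPM (47.9 to 54.8) in endocrine cells (71 and 37.5 by plate) and at 74.3 CPM in the mesothelial cells of the Nkx3.2 line (54.2 and 79.1 on plates 7A and 7B). The median epithelial cell had 90.4 CPM and the highest 384 CPM, and 84.9% of these cells had a count (75.5% to 91.7%). Among endocrine cells 16 of 20 had one (80%, 56.3% to 94.3%), all 9 on plate 8A and 7 of 11 on plate 8B. Mesenchyme was at 43.9, 48.5 and 66.3 CPM in the 3 lines, with a count in 45.2%, 60.1% and 55.8% of cells. Only the 5 mesothelial cells of the Nkx2.5 line were almost without Fzd3, with 3 counts in 1 cell (0.593 CPM).

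Fzd6 was found mainly in epithelial and mesothelial cells. It had a count in 31 of 86 epithelial cells (11.8 CPM, 14.1 and 9.20 by plate), 5 of 20 endocrine cells (5.56 CPM, all on plate 8B) and 8 of 22 mesothelial cells of the Nkx3.2 line (13.7 CPM, all on plate 7B). In mesenchyme it was at 0.269, 0.0929 and 1.53 CPM in the Nkx2.5, Nkx3.2 and Prox1-GFP lines, with 11, 9 and 9 cells positive.

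Fzd4, a receptor for Wnt ligands and for Norrin, was the leading receptor of the mesothelial cells per kb in each line. By plate it led per kb on 7A and 6A, while on 7B it was close to Fzd2 (11 and 10.6 CPM per kb). On 6B, with 2 such cells, Fzd7 led per kb, and on the raw scale Fzd3 led on 7B with 33.2% of the summed CPM. In the Nkx3.2 line it stood at 92.2 CPM with a counting interval of 87.8 to 96.7 (169.7 CPM in the 3 cells of plate 7A and 74 CPM in the 19 of plate 7B), with a count in 14 of 22 cells (63.6%, 40.7% to 82.8%), a median cell at 23.8 CPM and the highest at 352 CPM. Mesenchyme of the same plates was at 11.4 and 7.49 CPM, and 11.3% of its cells had a count. In the Nkx2.5 line 1 of 5 mesothelial cells carried all Fzd4 counts of the group (43.3 CPM). Epithelial cells were at 9.88 CPM with 13 of 86 positive, and in endocrine cells 1 of 2 positive cells held 98.9% of the counts (5.56 CPM).

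Fzd5 and the remaining members were scarce. Fzd5, which is known from endoderm, had a count in 23 of 86 epithelial cells (9.35 CPM, 7.42 and 11.6 by plate), in 3 of 22 mesothelial cells of the Nkx3.2 line (6.63 CPM) and in 1 endocrine cell (3.96 CPM), while mesenchyme was between 0.0332 and 1.03 CPM. Fzd8 was found in 6 epithelial cells (5.23 CPM, 0.0516 CPM on plate 8A and 11.2 CPM on 8B), with 37.9% of the counts in 1 cell, in 3 mesothelial cells (3.92 CPM) and in 7 mesenchymal cells (1.22 CPM) of the Nkx3.2 line. Fzd9 was found in 5 epithelial cells (4.53 CPM) and 1 mesenchymal cell of the Prox1-GFP line. Fzd10 was close to absent, with 28 counts in 2 mesenchymal cells of the Prox1-GFP line (0.475 CPM) and 1 count in mesenchyme of the Nkx2.5 line. Each of these levels rests on few cells.

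**Figure D1:**
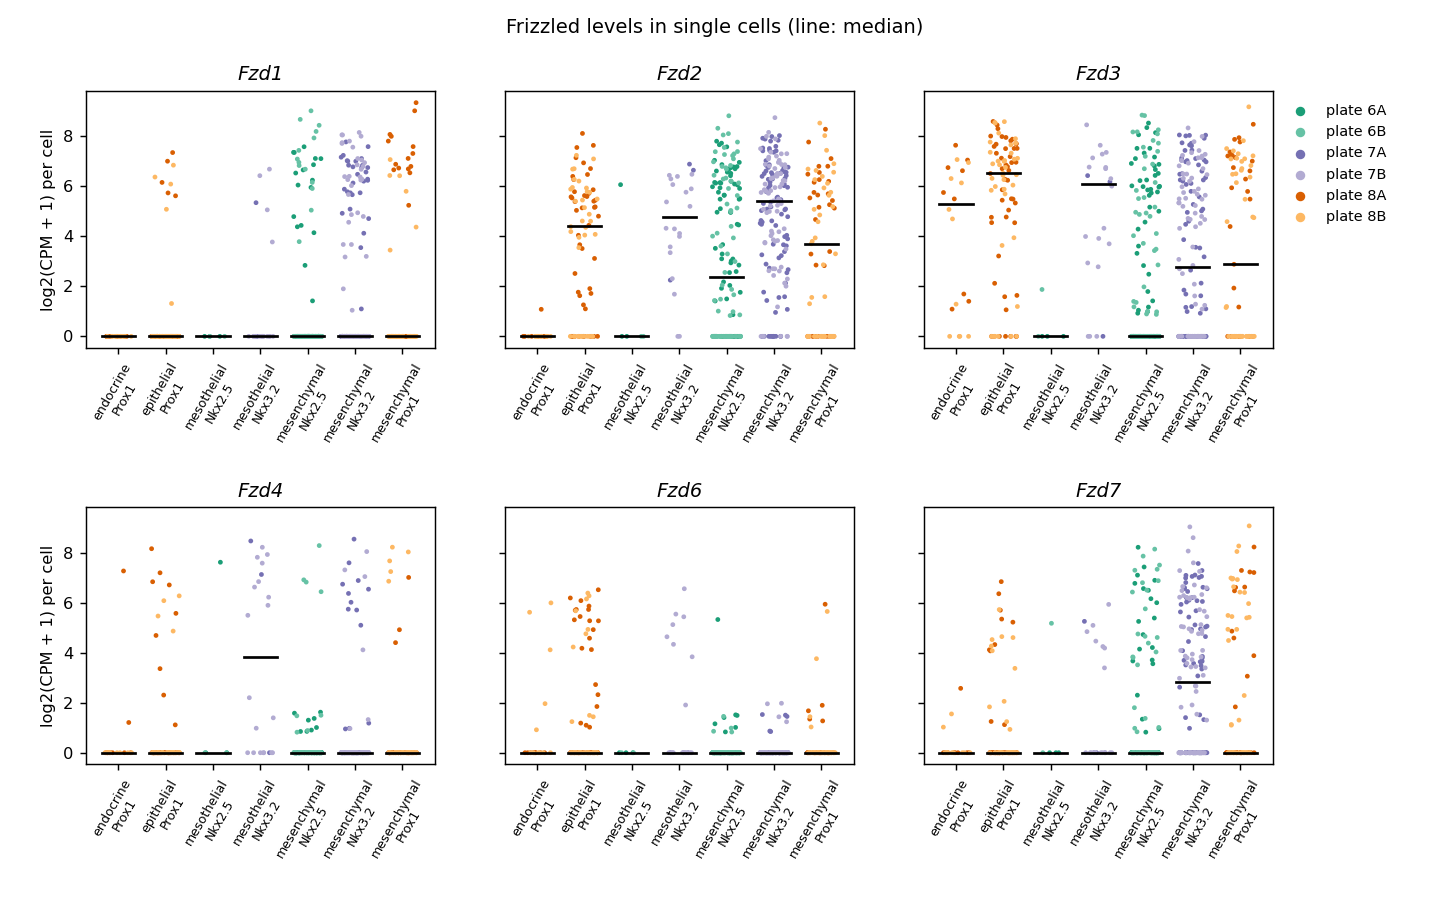
Level in each cell (dots, log2 of CPM plus 1) of Fzd1, Fzd2, Fzd3, Fzd4, Fzd6 and Fzd7 by group of class and line, coloured by plate, with the median cell as a line. Fzd2 is at or near 0 in the 20 endocrine cells, Fzd3 is above 0 in 16 of them, and the Fzd4 median is above 0 only in the mesothelial cells of the Nkx3.2 line.

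On the scale per kb the order of the receptors differed from that of the raw levels. Fzd3 made up 60.1% of the summed Frizzled level of endocrine cells (6.66 CPM per kb for the 10 genes together), and 60.8% and 59.1% on plates 8A and 8B. In epithelial cells Fzd2 (10.3 CPM per kb, 33.1% of 31.1) stood just before Fzd3 (8.81 CPM per kb, 28.4%), but on plate 8B they took 28.9% and 28.8%, so the pair is not ordered there, and without the division by length Fzd3 led with 54.3%. In the mesothelial cells of the Nkx3.2 line Fzd4 (13.7 CPM per kb) and Fzd2 (12.5) took 33.4% and 30.5% of 41 CPM per kb. On plate 7B, with 19 of these cells, they took 29.6% and 28.6%, so the pair is not ordered there. The wider lead of Fzd4 rests on the 3 cells of plate 7A (43.9% and 35.9%). Fzd2 led in mesenchyme of the Nkx2.5 and Nkx3.2 lines with 45.7% and 45%, followed by Fzd1, Fzd7 and Fzd3. In mesenchyme of the Prox1-GFP line Fzd2 (11.1 CPM per kb), Fzd1 (9.59) and Fzd7 (9.16) were close, and Fzd1 led on plate 8A with 42.9% and Fzd7 on plate 8B with 34.5%. Endocrine cells had the lowest summed level of the groups. Mesothelial cells of the Nkx3.2 line had the highest, but this place rests on the 3 cells of plate 7A (57.7 CPM per kb), as the 19 of plate 7B were at 37.1 CPM per kb, below the mesenchyme of the same plate (41.3).

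The number of different Frizzled genes in a cell followed the same lines. A median of 1 member had a count in endocrine cells, 3 in epithelial cells and 3.5 in mesothelial cells of the Nkx3.2 line, and 2, 3 and 2 in mesenchyme of the Nkx2.5, Nkx3.2 and Prox1-GFP lines. At least 3 members were found in 1 of 20 endocrine cells, 48 of 86 epithelial cells and 20 of 22 of these mesothelial cells. Thinned to 100000 counts a cell, so that depth was equal, the mean was 0.9 in endocrine, 2.49 in epithelial and 3.05 in these mesothelial cells (1.4, 2.83 and 3.59 before), and 1.29, 2.2 and 1.83 in mesenchyme of the 3 lines. The endocrine cells had the lowest mean of these 6 groups and the mesothelial cells the highest at either depth, and the 5 mesothelial cells of the Nkx2.5 line, at 0.6 thinned and 0.8 before, were lower still. Fzd2 and Fzd3 were found together in 50 of 86 epithelial cells (58.1%), and the product of their shares is 60.2%. In mesenchyme of the Nkx3.2 line the values were 53.6% and 53.3%, so in these groups the genes were found together about as often as their shares alone give. In mesenchyme of the Nkx2.5 line the values were further apart, at 31.5% and 26.9%. Other pairs are not described here.

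**Figure D2:**
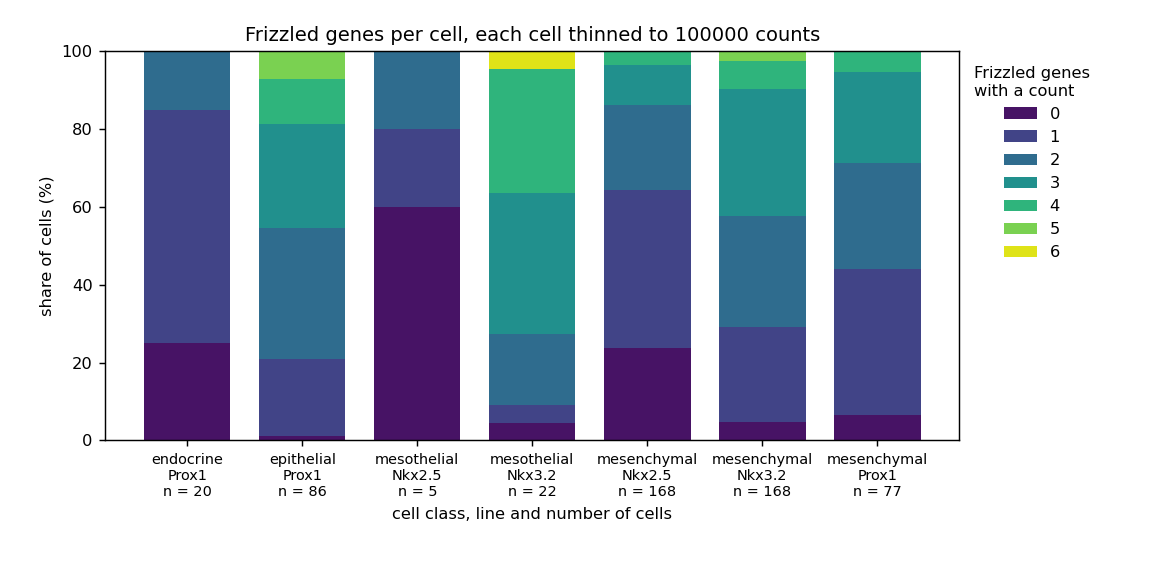
Share of cells (percent, stacked) by the number of Frizzled genes with at least 1 count, after thinning each cell to 100000 counts, for the 7 groups of class and line. The mean is 0.9 genes in endocrine cells, 2.49 in epithelial cells and 3.05 in mesothelial cells of the Nkx3.2 line.

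For the comparisons a gene was considered when it reached 10 CPM on either side, and it was called when the levels differed at least 2-fold over the plates together and in the same direction on each pair of plates with at least 3 cells a side. The same rule was applied to all genes, and the share of them called is given as background. For a fold given as "at least", a side under 3 counts was set to 3 counts. Such a fold is a bound of counting only and does not cover which cells were sampled. The epithelial cells stand in 2 of the comparisons and the mesenchyme of the Nkx3.2 line in 3, so these are not independent of each other.

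Endocrine cells were set against the other epithelial cells of the same plates to ask which receptors differ between them. Fzd3 was lower in endocrine cells, at 51.2 against 112.9 CPM (log2 ratio -1.14, -1.24 to -1.04). Fzd1 was at 0 against 10.2 CPM, at least 57.5-fold lower by counting alone, with 10 of 86 epithelial cells positive. The share of endocrine cells with Fzd1 may be as high as in the epithelium (upper limit 16.8%, against 11.6%). Fzd2 had 1 count against 2742, a log2 ratio of -9.32 with a counting interval from -14.62 to -6.84. Of the 4 members that reached 10 CPM, these 3 were called lower and 0 higher, while over 11046 genes 23.2% were called lower and 17.5% higher, with a median log2 ratio of -0.10. Fzd1, Fzd2 and Fzd6 reached 10 CPM only through the epithelial side, so that their count is a description and does not show a shift of the family. Fzd6 was at 5.56 against 11.8 CPM and was not called, as it was 0 on plate 8A and 9.44 against 9.20 CPM on plate 8B. Among the scarcer members Fzd7 was at 0.414 against 6.45 CPM (log2 ratio -3.96, -5.29 to -2.91), and Fzd8 and Fzd9 were at 0 against 5.23 and 4.53 CPM. The Fzd3 ratio was -0.63 on plate 8A alone, which is under 2-fold, and -1.64 on plate 8B alone. The Fzd1 call was lost in 6 of 16 alternative settings, while its log2 ratio, with endocrine cells set to 3 counts, stayed between -5.89 and -2.44 over the 16. The proliferation markers stood at 211 CPM in endocrine and 1241 CPM in the other epithelial cells, and 19 of the 20 endocrine cells were assigned to G1. The part of the cell cycle in the Frizzled differences was not tested. In the 35 epithelial cells assigned to G1 Fzd2 was at 39.6 CPM, Fzd3 at 108.3 CPM and Fzd1 at 5.3 CPM, and in the 51 others at 36.5, 115.7 and 13.2 CPM.

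Epithelial cells were also set against the mesenchymal cells of the Prox1-GFP line. Fzd6 was 7.73-fold higher in epithelium (11.8 against 1.53 CPM, log2 ratio 2.95, 2.64 to 3.28) and Fzd7 6.43-fold lower (6.45 against 41.5 CPM, -2.69, -2.83 to -2.54). Thus 1 of 6 members considered was called higher and 1 lower, where 14.4% and 13.4% of 10794 genes were. Both reached 10 CPM only on the side where they were higher, so nothing is read from these counts. Fzd3 was higher on both plates, at 112.9 against 66.3 CPM, but by under 2-fold (log2 ratio 0.77, 0.71 to 0.82). Fzd2 was at 37.7 against 40.6 CPM (-0.11, -0.19 to -0.03). Fzd1 was at 10.2 against 40.3 CPM in all, but at 10.6 against 89.3 CPM on plate 8A and 9.70 against 7.08 CPM on plate 8B, so no direction can be given. Fzd5 did not reach 10 CPM, with 9.35 against 1.03 CPM (3.18, 2.80 to 3.58). Fzd8 was at 5.23 CPM, from 6 of 86 cells, against 0 counts in 77 mesenchymal cells. That is at least 102.8-fold higher by counting alone. The intervals of the shares of cells overlap (2.6% to 14.6%, against up to 4.68%). With plate 8B alone Fzd6 was no longer called, since its level of 9.20 CPM there is under 10 CPM.

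**Figure D3:**
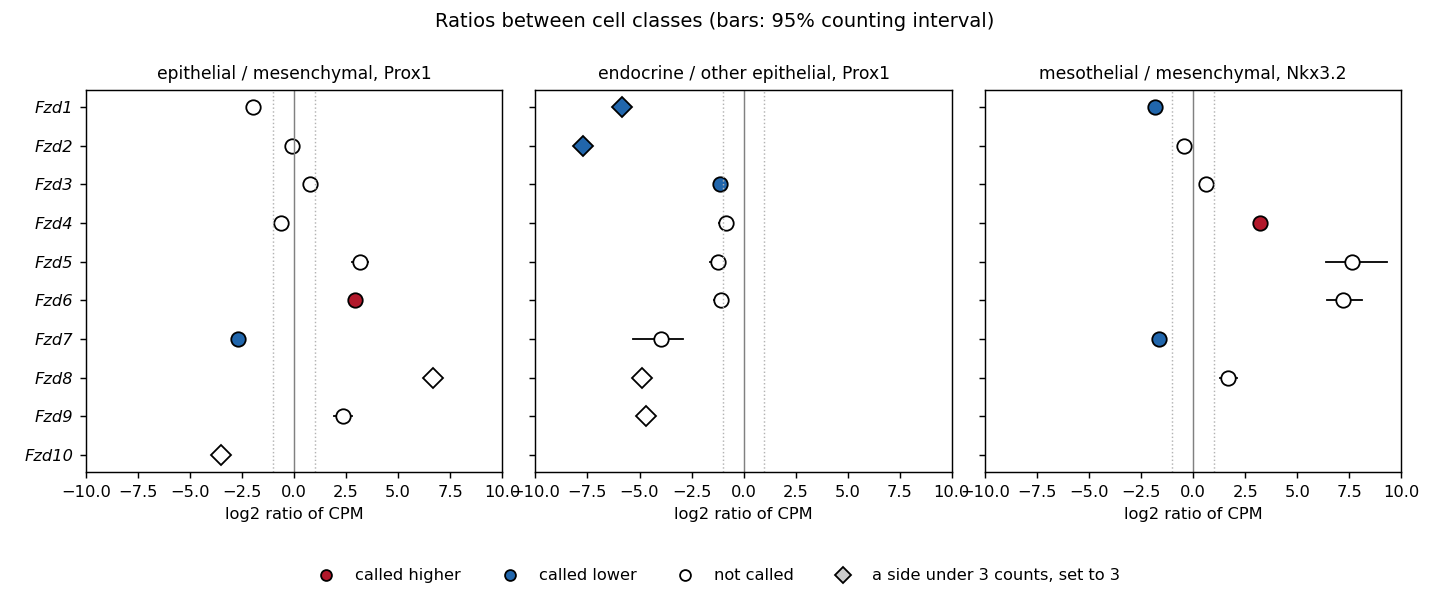
Log2 ratio of CPM for each Frizzled gene in the comparisons of endocrine with other epithelial cells, epithelial with mesenchymal cells (both Prox1-GFP) and mesothelial with mesenchymal cells (Nkx3.2 line), with 95% counting intervals. Called genes are filled (red higher, blue lower), diamonds mark ratios in which a side under 3 counts was set to 3 counts, and dotted lines mark 2-fold. Fzd4 is the red point of the mesothelial comparison at 3.22 and Fzd7 the blue point of the epithelial one at -2.69.

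Mesothelium, the sheet of cells that covers the organ, was compared with mesenchyme within the Nkx3.2 line. Fzd4 was 9.31-fold higher in the mesothelial cells (92.2 against 9.90 CPM, log2 ratio 3.22, 3.12 to 3.32). Fzd1 was 3.63-fold lower (9.68 against 35.2 CPM, -1.86, -2.08 to -1.64) and Fzd7 3.12-fold lower (10.1 against 31.4 CPM, -1.64, -1.86 to -1.43). These are 1 of 6 members called higher and 2 of 6 called lower, where 8.67% and 11.5% of 10605 genes were. Fzd4 and Fzd6 reached 10 CPM only in the mesothelial cells and Fzd1 only in the mesenchyme, so nothing is read from these counts. The Fzd1 and Fzd4 calls held in all 16 alternative settings in which the comparison could be made. With 30 principal components no cells of the Nkx3.2 line were classed as mesothelial, so that setting gave no values. The Fzd7 call was lost, at -0.58, when 1 cell of the mesothelial cluster that carried mesenchymal rather than mesothelial markers was kept. Fzd3 was at 74.3 against 48.5 CPM (0.62, 0.53 to 0.70) and Fzd2 at 45.8 against 62.3 CPM (-0.44, -0.55 to -0.34). Fzd6 stood at 13.7 against 0.0929 CPM (7.20, 6.43 to 8.10), but all its mesothelial counts were on plate 7B and the 3 cells of plate 7A had none, so it was not called. Fzd5 showed the same with lower counts, at 6.63 against 0.0332 CPM. In the Nkx2.5 line, with 5 mesothelial cells and thus outside the rule, Fzd4 was at 43.3 against 4.16 CPM, from 1 cell, and Fzd3 at 0.593 against 43.9 CPM. The proliferation markers were at 729 CPM in the mesothelial cells of the Nkx3.2 line.

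Fzd1 and Fzd7, both called lower there, and Fzd4, called higher, have promoters in the RefSeq table (GRCm38.p6), as do 6 of the 10 members in all. They are shown to set the start regions of genes that moved apart side by side, each as the 250 bases before the annotated start, read 5′ to 3′ on the gene's strand. Capitals mark matches on either strand to GGGCGG, the letters of a GC box, to CTTTGA, the core of TCF/LEF sites, and to TATAAA, those of a TATA box.
Fzd1 (chr5:4758217-4758466, - strand): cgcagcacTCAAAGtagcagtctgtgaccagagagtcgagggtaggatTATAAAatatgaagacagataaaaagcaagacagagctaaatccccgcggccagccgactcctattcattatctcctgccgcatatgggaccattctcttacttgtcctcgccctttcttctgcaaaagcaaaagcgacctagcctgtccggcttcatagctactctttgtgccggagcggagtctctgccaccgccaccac
Fzd7 (chr1:59481897-59482146, + strand): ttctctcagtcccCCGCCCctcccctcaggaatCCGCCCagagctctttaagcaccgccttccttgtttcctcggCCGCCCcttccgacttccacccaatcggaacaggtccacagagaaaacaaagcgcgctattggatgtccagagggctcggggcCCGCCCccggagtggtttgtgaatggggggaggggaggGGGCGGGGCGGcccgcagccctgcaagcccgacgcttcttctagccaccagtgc
Fzd4 (chr7:89404116-89404365, + strand): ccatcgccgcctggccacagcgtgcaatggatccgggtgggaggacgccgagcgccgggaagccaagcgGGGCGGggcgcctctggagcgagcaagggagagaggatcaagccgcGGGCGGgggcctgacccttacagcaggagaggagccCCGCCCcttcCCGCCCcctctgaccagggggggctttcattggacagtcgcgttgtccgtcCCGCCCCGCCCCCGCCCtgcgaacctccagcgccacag
Fzd4 had 7 GC boxes, counting overlapping matches, and Fzd7 had 6, while Fzd1 had 0 GC boxes, 1 CTTTGA and 1 TATAAA. Of 32851 RefSeq promoters 32.7% held GGGCGG, 13.8% CTTTGA and 12.4% TATAAA. CG pairs numbered 12 in Fzd1, 17 in Fzd7 and 25 in Fzd4, where the median promoter had 6. Fzd1 and Fzd7 moved the same way and did not share these motifs. The match of letters is a description of the sequence and not of factor binding.

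Between the lines, no Frizzled gene was called in mesenchyme. Against the Nkx3.2 line, the Nkx2.5 line had 0 of 4 members called in either direction, where 4.1% of 10134 genes were called higher and 5.47% lower. Fzd2 (44.1 against 62.3 CPM, log2 ratio -0.50, -0.54 to -0.45) and Fzd7 (17.4 against 31.4 CPM, -0.85, -0.92 to -0.78) were lower in each of the 4 pairs of plates, by under 2-fold. Fzd1 was at -0.43 and Fzd3 at -0.15, neither with the same sign in all pairs. Fzd4, at 4.16 against 9.90 CPM (-1.25, -1.38 to -1.12), was just under 10 CPM and so not considered. It was lower in 3 of the 4 pairs. The Prox1-GFP line had 0 of 5 members called in either direction, where 3.65% of 10122 genes were called higher and 4.52% lower. There Fzd2 (40.6 against 62.3 CPM, -0.62, -0.68 to -0.55) was lower and Fzd3 (66.3 against 48.5 CPM, 0.45, 0.39 to 0.51) higher in each of the 4 pairs, again under 2-fold, and Fzd1 (0.20), Fzd4 (0.64) and Fzd7 (0.40) changed sign between pairs. These are differences of single lines on separate plates, and line and plate cannot be told apart.

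The mesenchymal cells fell into 7 clusters, over which the levels of the members varied. Clusters are given by number and leading genes. Fzd7 was highest in cluster 5 (48 cells, Itm2a and Mest) at 61.5 CPM and lowest in cluster 2 (69 cells, Lpar1) at 12.1 CPM. Fzd2 ranged from 35.4 CPM in cluster 1 (78 cells, proliferation genes) to 80.5 CPM in cluster 6 (43 cells, Kcnj8 and Cxcl12). Fzd1 reached 73 CPM in cluster 9 (26 cells, Igf1 and Capn6), with 56.9 CPM in cluster 6 and 20.8 CPM in cluster 2, a narrower range than that of its plates 8A and 8B (89.3 and 7.08 CPM). Fzd4, scarce in mesenchyme as a whole, stood at 33.3 CPM in cluster 9, at 25 CPM in cluster 6 and at 1.75 CPM in cluster 2, and in cluster 9 it came from 11.5% of the cells, 1 of which held 47.6% of the counts. Fzd3 was between 35.4 CPM in cluster 2 and 78.4 CPM in cluster 9. The lines were spread unevenly over these clusters: 56 of 69 cells of cluster 2 were from the Nkx2.5 line, 35 of 43 of cluster 6 from the Nkx3.2 line and 18 of 26 of cluster 9 from the Prox1-GFP line, so cluster and line are not separate comparisons.

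**Figure D4:**
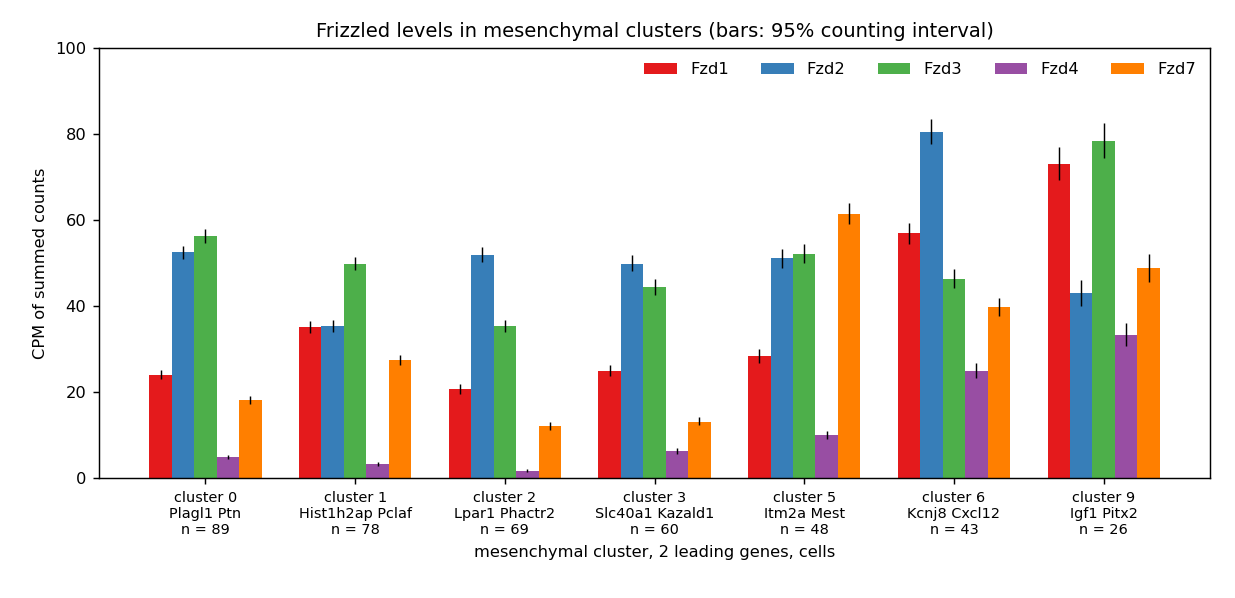
Summed level (CPM, bars from 0) of Fzd1, Fzd2, Fzd3, Fzd4 and Fzd7 in the 7 mesenchymal clusters over all lines, with 95% counting intervals. Fzd7 reaches 61.5 CPM in cluster 5, Fzd2 80.5 CPM in cluster 6, and Fzd4 is above 20 CPM in clusters 6 and 9.

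The 52 other genes of the Wnt pathway were followed with the same rule. In epithelial against mesenchymal cells 31 were considered, 7 were higher and 14 lower, where 14.4% and 13.4% of all genes were (median log2 ratio -0.67, against -0.01 over all genes). The ligand gene Wnt7b (60.8 CPM against 0, at least 1195-fold), Rnf43, whose product removes Frizzled proteins from the surface (28.5 CPM against 0, at least 560-fold), and the decoy receptor gene Sfrp5 (18.9 CPM against 0, at least 372-fold) were higher in epithelium. Lef1, a nuclear partner of β-catenin (0.454 against 106.2 CPM), and the ligand gene Wnt5a (1.61 against 167.8 CPM) were lower there.

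In endocrine against other epithelial cells 26 of the 52 were considered, 7 were higher and 9 lower, where 17.5% and 23.2% of all genes were (median -0.27, against -0.10 over all genes). Wnt7b and Rnf43, like Fzd1, had 0 counts in endocrine cells (at least 343-fold and 160.7-fold lower), as did the decoy gene Sfrp1 (at least 59.3-fold). The planar polarity cadherin Celsr3 (24.6 against 0.440 CPM) and the ligand gene Wnt4 (30.1 against 1.42 CPM) were higher. In mesothelial against mesenchymal cells 31 were considered, 5 were higher and 10 lower, where 8.67% and 11.5% of all genes were (median -0.51, against 0.01). The planar polarity gene Celsr1 (21 against 0.544 CPM) and the ligand gene Wnt9a (51.6 against 2.51 CPM) were higher, while Nkd2, a Dishevelled inhibitor (0 against 22.8 CPM, at least 140-fold), Notum, which inactivates Wnt (0.272 against 18.2 CPM), and Prickle2 (1 count against 8418, log2 ratio -10.01, counting interval -15.31 to -7.53) were lower. Tspan12, named after its values had been seen because its product is a partner of Fzd4 in Norrin signalling, was called higher in the mesothelial cells (72.9 against 30 CPM) as Fzd4 was, but it was highest in epithelial cells (240 CPM), where Fzd4 was at 9.88 CPM.

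Between lines the calls were as follows. In mesenchyme of the Nkx2.5 line, where 4.1% of all genes were called higher and 5.47% lower, 2 of 27 were higher (Znrf3, a homologue of Rnf43, 119.1 against 50.7 CPM, and Tspan12, 62.2 against 30 CPM) and 2 lower (Kremen1, 18.3 against 43.1 CPM, and Dvl2, a Dishevelled gene, 26.1 against 55.8 CPM), with a median of 0.28. In that of the Prox1-GFP line, where 3.65% of all genes were called higher and 4.52% lower, 2 of 29 were higher (the receptor gene Ror1, 135.2 against 60.2 CPM, and Tspan12, 65.9 CPM) and 2 lower (the planar polarity gene Vangl2, 28.2 against 61.5 CPM, and the ligand gene Wnt11, 3.93 against 10.8 CPM), with a median of -0.05. Both sets of ratios share the same Nkx3.2 cells.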

How the data were processed

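Single GFP+ cells were sorted into plates and sequenced by Smart-seq2. The authors trimmed reads with Trim Galore 0.6.5 per the labels, pseudoaligned them to GRCm38 with kallisto and used tximport to add up transcripts by gene. Each deposited value is an estimated count of reads, not scaled. Of the values above 0, 36.1% were not whole. The deposited counts were rounded for this work. Cells were kept with 1000 genes or more, 100000 counts or more and a mitochondrial share up to 30%. Clustering used Seurat 5.3.0 in R 4.3.3 with 2000 variable genes, 20 components and resolution 1.9, and intervals scipy 1.17.1. Clusters were named from marker lists. No doublet caller was run, and 3 cells with markers of another lineage than their cluster's were left out by a rule written after the clusters had been seen. The 10 members and all lists were chosen with earlier results of these data known. Named genes were the 10 members, up to 5 Wnt pathway genes with the highest ratios among those called in each comparison, and, per member, the 3 genes of most similar profile. The authors' annotation release is not given in the sources used here, so names, lengths and positions are those of GENCODE M21. The comparison procedure was tested on simulated data without differences between plates, in which genes well above the 10 CPM limit were changed. That does not cover members near the limit or far apart between plates.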

Additional observations from a re-analysis of the deposited data

Results flagged for a closer look

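Fzd3 went in opposite directions between mesothelial and mesenchymal cells in the Cre lines. The log2 ratio was -6.21 in the Nkx2.5 line, where 5 mesothelial cells held 3 counts, and 0.62 in the Nkx3.2 line, where 18 of 22 mesothelial cells had a count. The difference between the lines was not tested, as each line is 1 sample.

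Frizzled counts were also found in libraries outside the comparisons. The 27 wells that did not pass the cell filter held 258797 counts in all, of which 31 were of Fzd2, in 3 wells, and 4 of Fzd7, in 2 wells. The 3 cells left out for markers of another lineage held 248 counts of Fzd7, 45 of Fzd5 and 13 of Fzd3.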

How the results depend on the processing

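Labels give no replicate of a line, so no test was made. No paired test was made either, since the labels name no embryo and each line filled only 2 plates. Classes of 1 line do share plates, and their direction on each shared plate entered the calls as a description. Depth limits the scarce members: 3 counts correspond to between 0.0175 CPM (mesenchyme of the Nkx2.5 line) and 0.593 CPM (its mesothelial cells). No member called in the main run changed direction under any alternative run. Members not called in the main run could be called in opposite directions without different plates, as given below. The cause of each change of a count was not tested beyond what the setting itself does. Epithelial against mesenchymal cells had 1 member called higher, and 2 with thinning (Fzd5, Fzd6), 4 with a limit of 1 CPM (Fzd5, Fzd6, Fzd8, Fzd9), 2 with a ratio of 1.5 (Fzd3, Fzd6) and 2 with either plate left out (Fzd5 and Fzd8 without 8A, Fzd4 and Fzd6 without 8B). The 1 member called lower became 2 with the mean of per-cell CPM and with thinning (Fzd1, Fzd7), and 2 with either plate left out (Fzd4 and Fzd7 without 8A, Fzd1 and Fzd7 without 8B). The 3 called lower in endocrine cells became 6 with a limit of 1 CPM, between 3 and 4 without a plate, and 2 (Fzd2, Fzd3) with the mean of per-cell CPM, with each line clustered by itself and with classes set by marker score. Fzd1 was also not among those called lower with thinning and without the cell with most counts. In mesothelial cells the 1 called higher became 2 with a limit of 1 CPM (Fzd4, Fzd8), with a ratio of 1.5 (Fzd3, Fzd4) and without plate 7A (Fzd4, Fzd6), between 1 and 2 over the plates. With 30 principal components the mesothelial class of the Nkx3.2 line was not formed, so this comparison could not be made. The 2 called lower became 1 when the cells with markers of another lineage were kept, an alternative chosen after seeing the data. Against mesenchyme of the Nkx3.2 line, the Nkx2.5 line went from 0 to 1 lower with thinning (Fzd4), a limit of 1 CPM (Fzd8) and a ratio of 1.5 (Fzd7), and between 0 and 1 without a plate. The Prox1-GFP line went from 0 to 1 higher with a limit of 1 CPM (Fzd6), without plate 8A (Fzd4) and without plate 8B (Fzd1). It went from 0 to 1 lower with a limit of 1 CPM (Fzd8), a ratio of 1.5 (Fzd2) and without plate 8A (Fzd1). Fzd1 was thus called in opposite directions depending on the plate left out, with log2 ratios from -2.31 to 1.34 over the alternatives. Without division by length, Fzd3 moved from rank 2 to 1 in epithelial cells, from 3 to 2 in mesothelial cells of the Nkx3.2 line and from 4 to 2, 4 to 2 and 4 to 1 in mesenchyme of the Nkx2.5, Nkx3.2 and Prox1-GFP lines. The share of cells with a count left its own 95% binomial interval for 14 of 70 values when at least 5 counts were asked for and for 15 of 70 with thinning. Calls lost by leaving out 1 plate were those of Fzd6 in epithelial cells (without 8A), Fzd3 in endocrine cells (log2 ratio -0.63 without 8B) and Fzd1 in endocrine cells (without 8A).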

Other observations

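The epithelial cells fell into cluster 4 (55 cells), with Ambp, Cldn6 and Spp1 among its leading genes, and cluster 7 (31 cells), with Sox9 among them. Fzd3 was at 120 to 126.2 CPM (95% counting interval) in cluster 4 and at 91.5 CPM in cluster 7, Fzd4 at 13 and 3.28 CPM, Fzd6 at 8.55 and 18.6 CPM, Fzd5 at 10.5 and 6.99 CPM and Fzd2 at 36 and 41.4 CPM. Fzd6 was the higher in cluster 7 and Fzd4 in cluster 4, and all Fzd4 counts of cluster 7 came from 1 cell. In mesenchymal cells assigned to G1, Fzd2 was at 48.9, 69.3 and 49.5 CPM in the Nkx2.5, Nkx3.2 and Prox1-GFP lines, against 39, 56.4 and 32.9 CPM in cells assigned to S or G2/M. Fzd3 went the other way in the Nkx2.5 line, at 28.6 CPM in G1 against 60.1 CPM.

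The genes with profiles most like those of the members were ranked over 11 groups of class and plate, of which those of 1 plate share a library preparation and those of 1 class share a cell type, so the values are descriptions. Fzd2 was closest to Cdca7 (Pearson's r of log2(CPM + 1) 0.995), Mcm5 (0.994) and Rnf122 (0.992), and Fzd7 to Fam198b (0.979), Mest (0.977) and Slc43a3 (0.974). Fzd1 was closest to Sf3b5 (0.959), Fzd3 to Ide and Carmil1 (0.916 each), Fzd4 to Hgh1 (0.875), Fzd5 to Oprl1 (0.949), Fzd6 to Trim46 (0.934) and Fzd8 to Ripk2 (0.879). Among the members Fzd1, Fzd2 and Fzd7 had r between 0.86 and 0.91, while Fzd3 had 0.18 with Fzd2 and -0.09 with Fzd7. The groups include the endocrine cells of plates 8A and 8B, where Fzd1 had 0 counts, Fzd2 at most 0.144 CPM and Fzd7 at most 0.575 CPM. The part of these groups in the r values was not tested.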
